A study of Arabidopsis thaliana with 6 samples.

Results

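Xyloglucan endotransglucosylase/hydrolases (XTHs) are the enzymes that cut and rejoin xyloglucan in the plant cell wall. The family in this silique experiment comprised the genes whose deposited description contains "xyloglucan endotransglucosylase" or "xyloglucan endotransglycosylase", together with XTH22 (AT5G57560, also called TCH4), which gave 29 members of the 31608 genes and loci in the table. All 29 carry an XTH symbol, from XTH2 to XTH33. The symbols XTH1, XTH4, XTH5 and XTH27 belong to 4 genes described as endoxyloglucan transferases, which the wording left out and whose values are given separately.

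The study sequenced polyA RNA of Arabidopsis thaliana siliques, the fruits with their developing seeds, of the mee45-1 mutant and of wild-type Col-0, both collected 4 days after pollination. The labels give 3 libraries for each genotype, name the tissue both silique and seed, and speak of 3 biological repeats in one place and of duplicate collection in another, and n is taken as 3. The kind of mutation in mee45-1 and its background are not stated in the sources used here, and mee45-1 is a single allele. No label ties a repeat to its own plants, so a p-value here reflects variation among 3 libraries a genotype, some or all of which could be technical. The values used are genotype means made by the authors, so no SD between libraries can be given and overlap between libraries cannot be judged. Mean depth was 20530953 estimated counts per library in mee45 and 20242476 in Col-0. MEE45 (AT4G00260) itself, the gene the mutant is named for, had a mean of 1 estimated count in the mee45 libraries against 20.7 in Col-0 (adjusted p = 4.34e-06, the authors' deposited table).

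Markers of embryo, endosperm, seed coat and silique wall comprised 4 genes each, and all had counts in both genotypes. A gene is called higher or lower throughout where the authors' deposited table gives an adjusted p under 0.05, which was so for 6.67% (higher) and 9.15% (lower) of all genes tested. Embryo markers summed to 72.8 FPKM in mee45 and 103 FPKM in Col-0, with 1 of 4 higher and 3 lower. The embryo regulator FUS3 had 6.90 FPKM in mee45 against 25.3 FPKM in Col-0, a log2 fold change of -1.88. It fell furthest of the 4 embryo markers, before LEC1 (-0.49) and WOX9 (-0.48). STM rose, with 17.3 FPKM in mee45 against 9.97 FPKM in Col-0 (0.80). Endosperm markers summed to 20.1 FPKM in mee45 and 24.5 FPKM in Col-0, with 2 of 4 higher and 1 lower. The lower one was ZOU, with 10.2 FPKM in mee45 against 19.4 FPKM in Col-0. AGL62 (7.41 FPKM in mee45 against 3.68 FPKM in Col-0) and MINI3 (2.44 against 1.47 FPKM) rose. Seed coat markers summed to 775 FPKM in mee45 and 905 FPKM in Col-0, with 1 of 4 higher and 2 lower, but most of this sum was BAN, which was not called at 573 FPKM in mee45 and 466 FPKM in Col-0. The other seed coat genes moved apart, TT10 with 89.7 FPKM in mee45 against 274 FPKM in Col-0 (log2 fold change -1.61), MUM4 with 61.9 FPKM in mee45 against 139 FPKM in Col-0 (-1.16) and TT12 with 50.8 FPKM in mee45 against 26.4 FPKM in Col-0 (0.95). Silique wall markers summed to 330.0 FPKM in mee45 and 324 FPKM in Col-0, with 2 of 4 higher and 1 lower. This near-equal sum held changes in both directions. IND (8.82 FPKM in mee45 against 5.46 FPKM in Col-0) and SHP1 (118.6 against 89.6 FPKM) rose. SHP2 fell, with 134.5 FPKM in mee45 against 168.6 FPKM in Col-0, and FUL was not called. Of 3 pollen and anther markers, which summed to 70.1 FPKM in mee45 and 54.5 FPKM in Col-0, 1 was lower. This was VEX1, with 2.82 FPKM in mee45 against 11.3 FPKM in Col-0. Most of the sum was VGD1, which was not called at 67.1 FPKM in mee45 and 43.2 FPKM in Col-0. The lowest of all these markers were the endosperm gene IKU2 at 0.0633 FPKM in mee45 and 0.02 FPKM in Col-0 and the sperm cell histone gene MGH3 at 0.177 FPKM in mee45 and 0.08 FPKM in Col-0. In these bulk libraries fewer cells of a type and less RNA per cell cannot be told apart, and the part of tissue makeup in the XTH values was not tested.

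Xyloglucan is the main hemicellulose of the primary wall in Arabidopsis, a glucan backbone with xylose side chains that binds to cellulose. XTH enzymes cleave the backbone and join the new end to another xyloglucan chain, or, in a few members, to water, and so restructure the wall while cells grow. Phylogenetically the family is split into groups I, II, III-A and III-B, of which III-A (XTH31 and XTH32) is the group with known hydrolase activity. The catalytic site is a short conserved stretch with a pair of glutamates, the nucleophile and the acid/base residue, set on either side of an aspartate.

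To show how alike the members are at this site, the 30 bases (10 codons) encoding it were read from the RefSeq TAIR10.1 genome for each gene. The stretch was placed where the coding sequence best matched a 10-codon consensus that holds both glutamates and the aspartate. Agreement at these positions is therefore partly set by the search. The stretch lay within 1 exon in all 29 members, in exon 2 in 14 of them and in exon 3 in 15. The lines below hold the 8 members that rose in mee45, then the 2 that fell (XTH3 and XTH22), and last XTH11, which differs at the site. Each is written 5′ to 3′ on the coding strand, and the capitals mark the codons at the positions of the catalytic glutamates.
XTH6, chr5:26299613-26299642, plus strand: agagacGAGctagattttGAGttcttggga
XTH8, chr1:3879651-3879680, minus strand: agagacGAGatagatttcGAAtttctaggg
XTH9, chr4:1416535-1416564, plus strand: cacaacGAAttcgattttGAGttcttaggg
XTH15, chr4:8137782-8137811, minus strand: catgacGAGatagactttGAGtttctaggt
XTH16, chr3:8550595-8550624, plus strand: cacgacGAGatagactttGAGtttcttggt
XTH17, chr1:24257679-24257708, plus strand: tgggatGAGatcgatttcGAGttcttggga
XTH30, chr1:11576257-11576286, plus strand: cacgacGAGttagacataGAGtttctaggg
XTH33, chr1:3480306-3480335, minus strand: cacgacGAGatagacataGAAttgttgggt
XTH3, chr3:9127364-9127393, plus strand: cacgacGAGattgacttcGAGtttctaggg
XTH22, chr5:23307839-23307868, minus strand: tgggacGAGatagatttcGAGtttttaggg
XTH11, chr3:18007737-18007766, plus strand: catgatGAGctctgtttcCAGatcttggga
Both capital codons encode glutamate in 28 of the 29 members, on translation of the RefSeq coding sequence. The exception was XTH11 (AT3G48580), in which the second capital codon does not encode glutamate and the codon midway between the capitals does not encode aspartate. XTH11 matched XTH22 at 17 of the 30 bases, the fewest of any member, while XTH8 matched it at 26 and XTH9 at 21. On the genome, 11 of the 29 members lie on chromosome 4. Coding sequences ranged from 810 to 1074 bases. All 14 members of groups I, III-A and III-B had 4 exons in the longest coding model, whereas of the 15 group II members 13 had 3 exons, XTH22 had 2 and XTH26 had 4.

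The level of XTH transcripts, compared between genes in FPKM, which is scaled by transcript length, was concentrated in a few members. The 10 most abundant held 95.6% of the summed FPKM of the family in mee45 and 95.7% in Col-0. XTH24 (AT4G30270), known as MERI5 from its isolation as a meristem gene, stood first with 244 FPKM in mee45 and 287 FPKM in Col-0. In mee45 it was followed by XTH9 at 150.4 FPKM, XTH7 at 110 FPKM, XTH30 at 98.7 FPKM, XTH6 at 92.8 FPKM and XTH22 at 70.8 FPKM. In Col-0 the second place was taken by XTH22 at 165 FPKM, and XTH9, XTH7, XTH30 and XTH6 followed with 112, 93.4, 75.2 and 61.9 FPKM. XTH22 thus ranked 6th in mee45 and 2nd in Col-0, while the order of XTH9, XTH7, XTH30 and XTH6 among themselves was the same in both genotypes. Whether neighbours in these orders differ beyond the spread between libraries cannot be judged from genotype means. Members above 10 FPKM numbered 10 in mee45 and 8 in Col-0, and those above 1 FPKM numbered 18 in mee45 and 19 in Col-0.

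**Figure D1:**
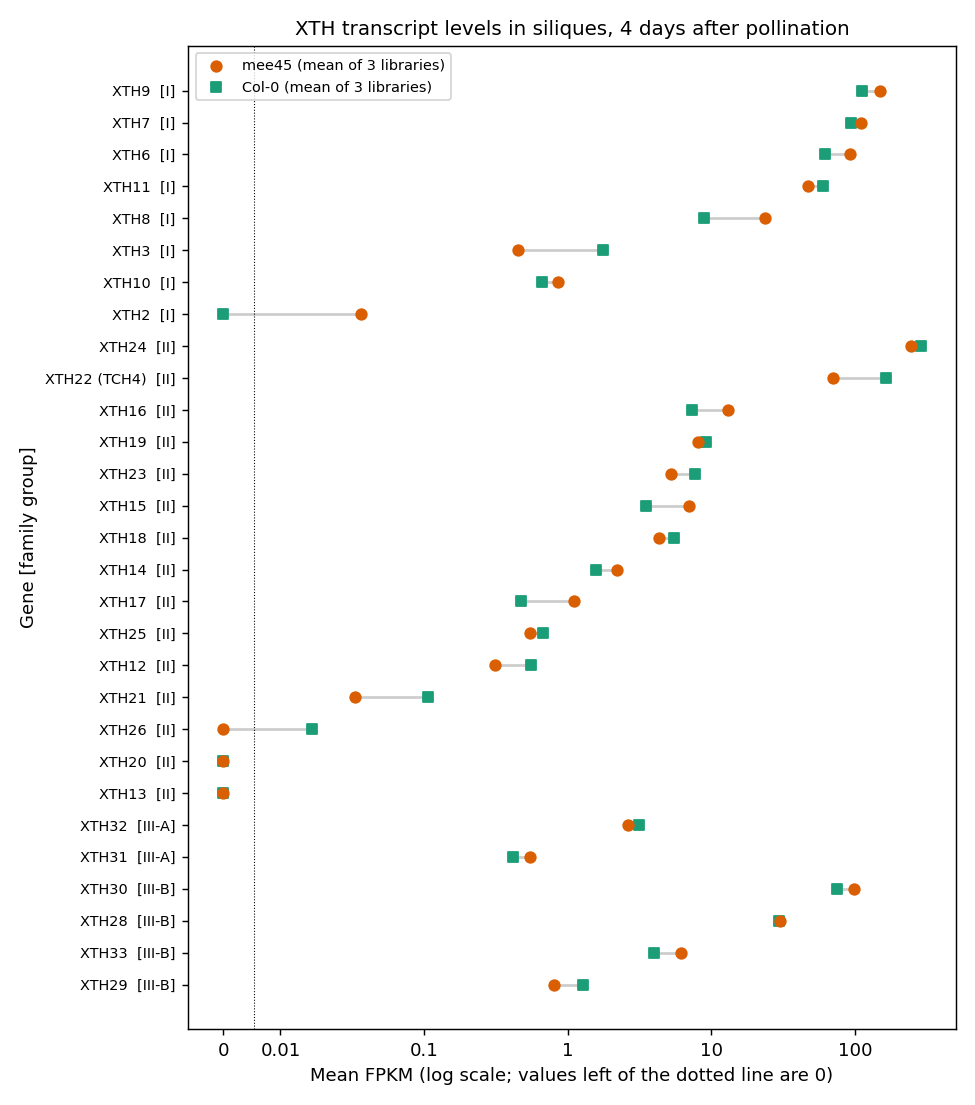
Mean FPKM (log scale) of the 29 XTH members in mee45 (orange circles) and Col-0 (green squares), each point the authors' mean over 3 libraries, ordered by family group in brackets and by level. Among the 10 members with the highest mean FPKM, XTH8 and XTH22 show the widest gaps on this scale, in opposite directions. XTH8 had 23.6 FPKM in mee45 against 8.98 FPKM in Col-0, and XTH22 had 70.8 FPKM in mee45 against 165 FPKM in Col-0. XTH13 and XTH20 lie at 0 in both.

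In the comparison of mee45 with Col-0, 8 of the 27 tested members rose and 2 fell, while 17 did not reach the adjusted p of 0.05. That is 29.6% of the members higher, where 6.67% of all 25434 genes tested were higher, and 7.41% lower, where 9.15% of all genes were lower. With only genes of at least 10 mean counts in the higher genotype, 8 of 24 members (33.3%) rose against 7.89% of 21045 genes, and 2 of 24 (8.33%) fell against 10.8%. The higher genes were XTH6, XTH8, XTH9, XTH15, XTH16, XTH17, XTH30 and XTH33, and the lower ones XTH3 and XTH22.

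The changes went both ways, and the decrease of XTH22 and the sum of the other members' differences were of similar size in counts not scaled for depth. The median log2 fold change of mean FPKM, mee45 over Col-0, was 0.03 over the 25 members with counts in both genotypes and 0.0018 over all 24055 such genes tested, with 13 members above 0 and 12 below. All members together had 21771 mean counts per library in mee45 and 21869 in Col-0, or 0.106% of all counts in mee45 (exact 95% binomial interval 0.105% to 0.107%) and 0.108% in Col-0 (0.107% to 0.109%), intervals that cover counting error only. XTH22 had 1560.7 mean counts in mee45 and 3543 in Col-0, a difference of -1982, and the other 28 members together differed by 1884 in the opposite direction. Depth was 1.014 times as high in mee45, which adds to that increase and takes from the decrease. By share of all counts, the other 28 members took 0.0984% in mee45 and 0.0905% in Col-0. XTH22 made up 7.69% of the family's summed FPKM in mee45 and 17.5% in Col-0. The summed level of the 8 higher genes was 393 FPKM in mee45 against 273 FPKM in Col-0.

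**Figure D2:**
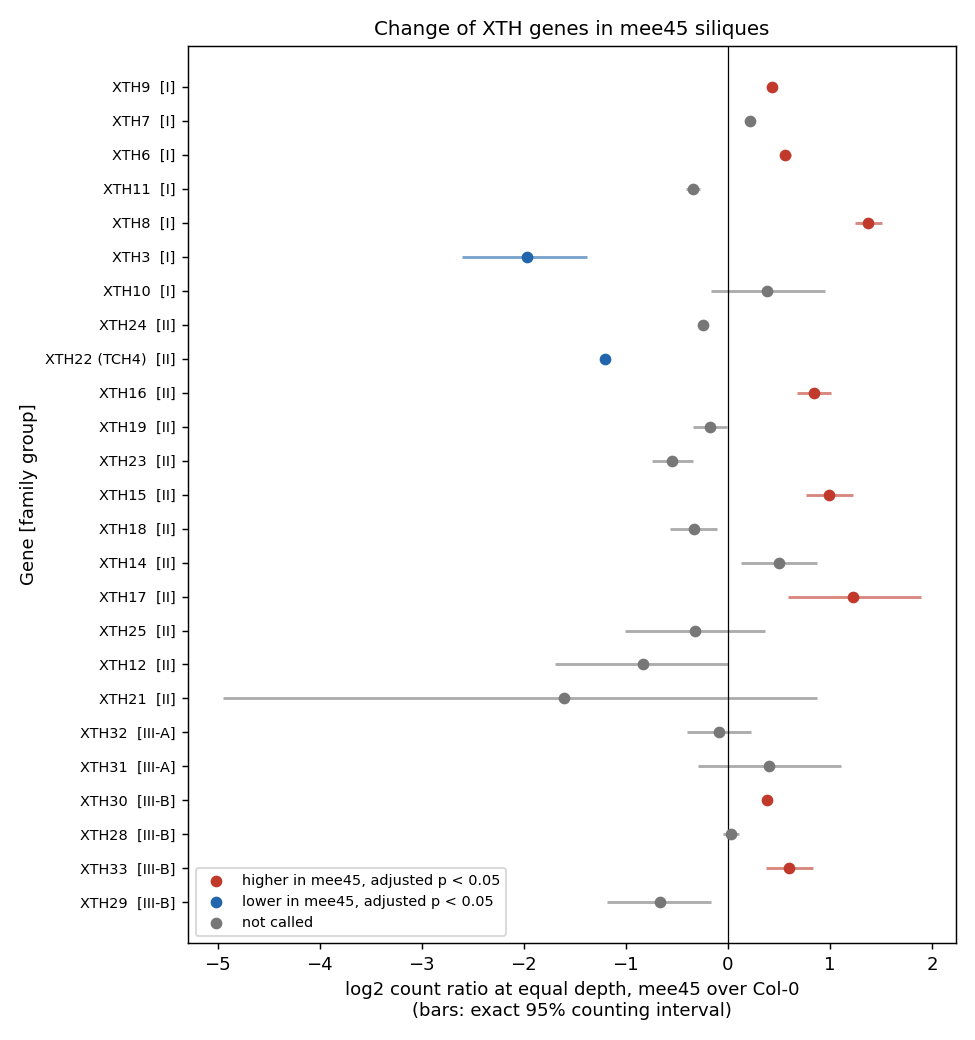
Log2 ratio of counts at equal depth, mee45 over Col-0, for the 25 XTH members with counts in both genotypes, with exact 95% counting intervals as bars, coloured by the call in the authors' deposited table. XTH8, at 1.38, is the highest and XTH3, at -1.97, the lowest of the called genes; the intervals hold counting error only, not the spread between libraries.

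XTH22 (AT5G57560, chromosome 5, 23307006 to 23308680, minus strand in TAIR10.1) is the gene known as TOUCH4, induced by mechanical stimulation and also by auxin, brassinosteroid and temperature shifts. Its level was 70.8 FPKM in mee45 against 165 FPKM in Col-0, a ratio of 0.429 and a log2 fold change of -1.22 (adjusted p = 1.35e-10, the authors' deposited table). The gene ends an array of 4 neighbouring group II members, with XTH12, XTH13 and XTH25. XTH13 had 0 counts in both genotypes. XTH12 had 6.67 mean counts in mee45 and 11.7 in Col-0, and XTH25 had 11.7 in mee45 and 14.3 in Col-0 (adjusted p = 0.427 and 0.846, the authors' deposited table). XTH12, XTH13 and XTH25 together thus had under 30 mean counts in either genotype, and the array as a whole had a log2 count ratio of -1.20 (exact 95% counting interval -1.25 to -1.15), close to that of XTH22 alone.

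The touch-induced genes TCH2 and TCH3, the 2 others of this name that were looked at, encode calmodulin-like calcium sensors, and both fell. TCH1, which encodes a calmodulin, was not analysed here. TCH2 (CML24, AT5G37770) had 134.6 FPKM in mee45 against 203 FPKM in Col-0, a log2 fold change of -0.59 (adjusted p = 1.95e-05, the authors' deposited table). TCH3 (CML12, AT2G41100) had 57.4 FPKM in mee45 against 155 FPKM in Col-0, a log2 fold change of -1.43 (adjusted p = 1.27e-05, the authors' deposited table). Of all genes tested, 9.15% were lower. The XTH closest in coding sequence to XTH22 was XTH23 (AT4G25810, 80.9% identical bases), which had 5.23 FPKM in mee45 and 7.70 FPKM in Col-0 and missed the threshold (adjusted p = 0.107, the authors' deposited table).

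XTH3 (AT3G25050, chromosome 3, 9126851 to 9128416, plus strand), a group I enzyme reported to act on cellulose as well as xyloglucan, was the other gene that fell. It was scarce, with 0.450 FPKM in mee45 against 1.77 FPKM in Col-0, or 10 mean counts in mee45 against 38.7 in Col-0. Its log2 fold change was -1.98 (adjusted p = 0.000124, the authors' deposited table), and its log2 count ratio had an exact 95% counting interval of -2.60 to -1.38.

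Of the 8 members of group I, 3 rose (37.5%): XTH8, XTH6 and XTH9. With XTH3 the only one lower (12.5%), these shares stood beside 6.67% higher and 9.15% lower of all genes tested. XTH8 (AT1G11545, chromosome 1, 3878495 to 3880391, minus strand) showed the largest increase of the family, 23.6 FPKM in mee45 against 8.98 FPKM in Col-0, a log2 fold change of 1.40 (adjusted p = 1.23e-10, the authors' deposited table). XTH6 (AT5G65730) had 92.8 FPKM in mee45 and 61.9 FPKM in Col-0, a log2 fold change of 0.58 (adjusted p = 0.0134, the authors' deposited table). XTH9 (AT4G03210), a gene known from shoot apices and growing stems, had 150.4 FPKM in mee45 and 112 FPKM in Col-0, a log2 fold change of 0.43 (adjusted p = 0.00368, the authors' deposited table). XTH6 and XTH9 were thus abundant genes with ratios below that of XTH8, which was 2.63. The 8 group I members together summed to 425 FPKM in mee45 and 339 FPKM in Col-0.

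Apart from these and XTH3, the group I members did not pass the test. XTH7 (AT4G37800) had 110 FPKM in mee45 and 93.4 FPKM in Col-0 (adjusted p = 0.399, the authors' deposited table). XTH11, the gene without a glutamate codon at the second catalytic position, had 47.0 FPKM in mee45 and 60.0 FPKM in Col-0, or 1003.7 mean counts in mee45 against 1257 in Col-0. Its log2 fold change of -0.35 lay just outside the threshold (adjusted p = 0.0704, the authors' deposited table). XTH10 stood at 0.857 FPKM in mee45 and 0.663 FPKM in Col-0. XTH2 had 0.667 mean counts in mee45 and is listed at 0 in Col-0, so no fold is given.

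Group II, the largest with 15 members, of which 13 were tested, had 3 higher genes (23.1%): XTH15, XTH16 and XTH17. With XTH22 the only lower one (7.69%), these shares stood beside 6.67% higher and 9.15% lower of all genes tested. XTH16 (AT3G23730) had 13.1 FPKM in mee45 against 7.34 FPKM in Col-0, a log2 fold change of 0.84 (adjusted p = 0.00234, the authors' deposited table). XTH15 (AT4G14130), known as XTR7 and for its induction in shade, had 7.03 FPKM in mee45 against 3.52 FPKM in Col-0, a log2 fold change of 1.00 (adjusted p = 8.38e-05, the authors' deposited table). These genes share 81.7% of their coding bases, and their summed counts had a log2 ratio of 0.89 (exact 95% counting interval 0.76 to 1.03). XTH15 overlaps AT4G14120 on the opposite strand, and strand use in counting is not stated in these sources. AT4G14120 had 80 mean counts in mee45 and 75 in Col-0, and the sum of both genes a log2 count ratio of 0.61 (exact 95% counting interval 0.44 to 0.78).

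XTH17 (AT1G65310) belongs to a set of closely similar genes, XTH17 to XTH20, that are known from roots. It had 1.11 FPKM in mee45 against 0.477 FPKM in Col-0, or 23.7 mean counts in mee45 against 10 in Col-0, with a log2 fold change of 1.22 (adjusted p = 0.0459, the authors' deposited table). Its coding sequence is 92.2% identical to XTH18, 88.6% to XTH19 and 85.7% to XTH20, so the division of reads among them is uncertain. XTH18 had 94 mean counts in mee45 and 117 in Col-0, XTH19 had 187 in mee45 and 208 in Col-0, and XTH20 had 0 in both. The sum of the 4 genes had a log2 count ratio of -0.16 (exact 95% counting interval -0.29 to -0.03), so the increase of XTH17 was not seen in the set as a whole.

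XTH24, the most abundant member, had a log2 fold change of -0.23 at 6044 mean counts in mee45 against 7036 in Col-0 (adjusted p = 0.187, the authors' deposited table). Without XTH22, the group II members summed to 286 FPKM in mee45 and 324 FPKM in Col-0. XTH21, known from roots, had 2 summed counts in mee45 and 6 in Col-0, a ratio at equal depth of 0.329 with an exact 95% counting interval from 0.0324 to 1.84. XTH26 is listed at 0 in mee45 and had 0.333 mean counts in Col-0, so no fold is given. XTH12, XTH13, XTH14 and XTH26 are known from root hairs and the root epidermis, and in these siliques their levels were at or below 2.21 FPKM in mee45 and 1.57 FPKM in Col-0.

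Of the 4 members of group III-B, 2 rose (50%, against 6.67% of all genes tested), both modestly, and 0 fell (against 9.15%). XTH30 (AT1G32170) had 98.7 FPKM in mee45 against 75.2 FPKM in Col-0, a log2 fold change of 0.39 (adjusted p = 0.0138, the authors' deposited table). XTH33 (AT1G10550), whose product is known to sit at the plasma membrane, had 6.13 FPKM in mee45 against 4.00 FPKM in Col-0, a log2 fold change of 0.62 (adjusted p = 0.0450, the authors' deposited table). XTH28 (AT1G14720), known from stamen filaments, had 30.3 FPKM in mee45 and 29.6 FPKM in Col-0 and missed the threshold (adjusted p = 0.980, the authors' deposited table). The hydrolase group III-A was scarce: XTH31 had 0.543 FPKM in mee45 and 0.417 FPKM in Col-0, XTH32 had 2.63 FPKM in mee45 and 3.13 FPKM in Col-0, and neither passed the test.

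The 8 further members that did not pass the test and had counts in both genotypes (XTH10, XTH14, XTH18, XTH19, XTH23, XTH29, XTH31 and XTH32) ranged from 0.543 to 8.09 FPKM in mee45 and from 0.417 to 9.22 FPKM in Col-0. Their log2 fold changes lay between -0.68 and 0.50, and the authors' deposited table lists adjusted p from 0.107 to 0.969 for them. Among all members, 6 of the 8 higher genes had a log2 fold change under 1, and XTH33 and XTH17 were nearest to the threshold on its inner side.

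**Figure D3:**
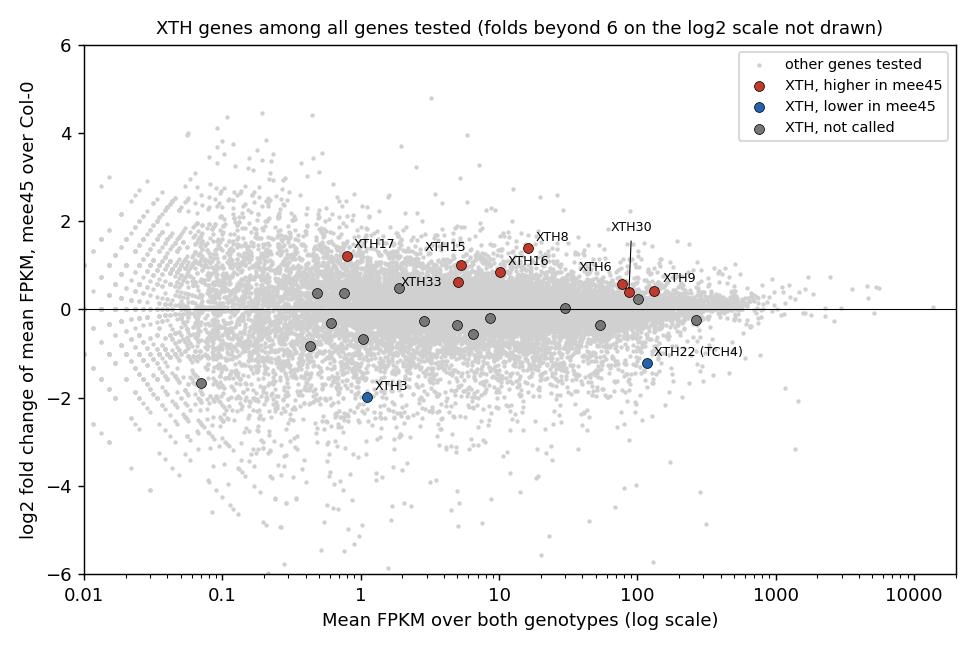
Log2 fold change of mean FPKM, mee45 over Col-0, against mean FPKM over both genotypes (log scale). Grey dots are other genes tested with counts in both, among them XTH1, XTH4, XTH5 and XTH27. Large points are the XTH members, coloured by call. Genes with folds or levels beyond the axis limits are not drawn. Higher XTH members are found from about the level of XTH17 (1.11 FPKM in mee45) to that of XTH9 (150.4 FPKM in mee45), while XTH22 lies at -1.22.

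The 4 XTH genes outside the wording of the descriptions were tested as well, and 2 of them rose. XTH4 (AT2G06850), also known as EXGT-A1, had 192 FPKM in mee45 against 113 FPKM in Col-0, a log2 fold change of 0.76 (adjusted p = 3.63e-06, the authors' deposited table). XTH1 (AT4G13080) had 18.2 FPKM in mee45 against 11.8 FPKM in Col-0, a log2 fold change of 0.63 (adjusted p = 0.00139, the authors' deposited table). XTH27 (AT2G01850), at 216 FPKM in mee45 and 223 FPKM in Col-0, and XTH5 (AT5G13870), at 3.84 FPKM in mee45 and 3.93 FPKM in Col-0, did not pass the test. With them, 10 of 31 tested XTH genes (32.3%) rose and 2 (6.45%) fell, against 6.67% and 9.15% of all genes tested. All 33 together took 0.161% of counts in mee45 and 0.154% in Col-0.

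Genes that build and trim xyloglucan were counted in the same way. Of 20 genes on a list of these steps, 6 rose and 2 fell, or 30% higher and 10% lower against 6.67% and 9.15% of all genes, with a median log2 fold change of 0.13. Among the 5 glucan synthases of the backbone, CSLC5 and CSLC8 rose, with 27.5 FPKM in mee45 against 19.5 FPKM in Col-0 for CSLC5 and 10.4 FPKM in mee45 against 7.55 FPKM in Col-0 for CSLC8. Their log2 fold changes were 0.49 and 0.47 (adjusted p = 0.000769 and 0.00955, the authors' deposited table). CSLC4, the most abundant of them, had 31.5 FPKM in mee45 and 40.0 FPKM in Col-0 and missed the threshold (adjusted p = 0.140, the authors' deposited table).

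Of the side-chain enzymes, the xylosyltransferase gene XXT1 fell, with 27.7 FPKM in mee45 against 38.5 FPKM in Col-0, a log2 fold change of -0.48 (adjusted p = 0.00223, the authors' deposited table). XXT2 and XXT5, at 45.1 and 50.8 FPKM in mee45 and 43.4 and 50.2 FPKM in Col-0, did not pass it. The galactosyltransferase gene XLT2 rose by 0.38 on the log2 scale (adjusted p = 0.0114, the authors' deposited table). The acetylation genes AXY4 and AXY4L moved apart, with log2 fold changes of 0.56 and -0.91 (adjusted p = 0.0448 and 0.000327, the authors' deposited table). Among the glycosidases that trim side chains, the galactosidase gene BGAL10 rose to 12.9 FPKM in mee45 against 7.80 FPKM in Col-0, a log2 fold change of 0.73 (adjusted p = 1.04e-06, the authors' deposited table). The fucosidase gene AXY8 rose by 0.47 (adjusted p = 0.00138, the authors' deposited table), and the xylosidase gene XYL1, at 76.2 FPKM in mee45 and 80.4 FPKM in Col-0, did not pass the test.

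**Figure D4:**
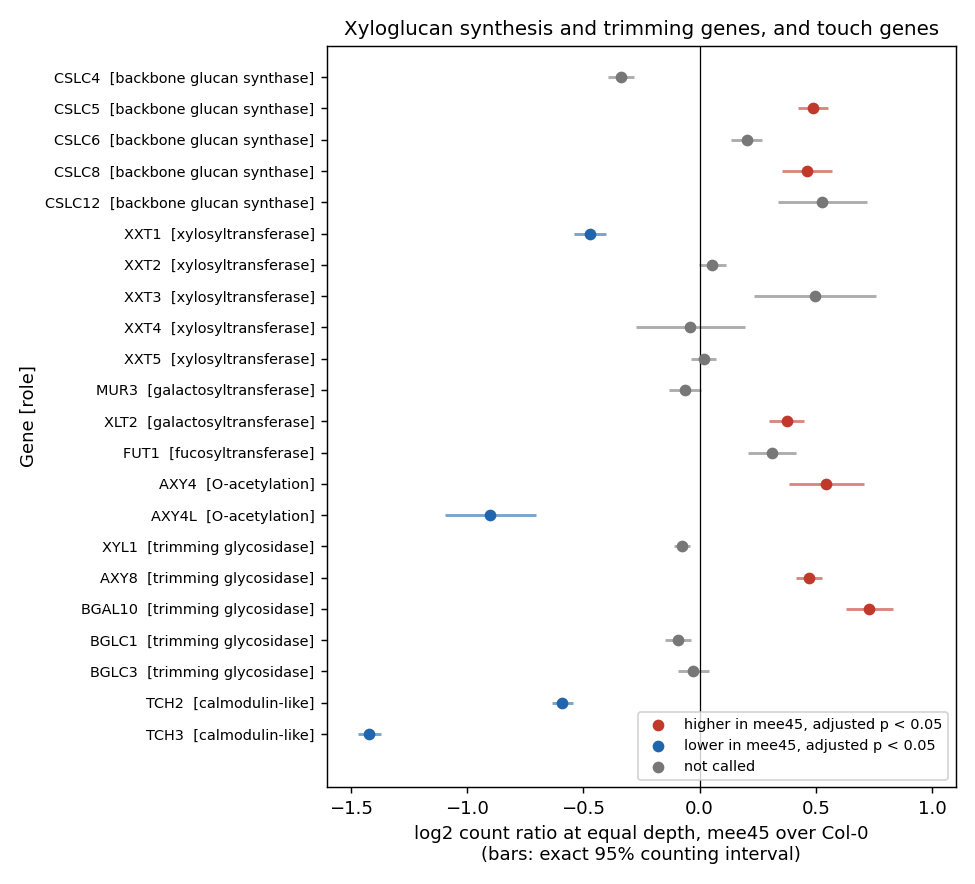
Log2 ratio of counts at equal depth, mee45 over Col-0, for 20 genes of xyloglucan synthesis and trimming and the touch genes TCH2 and TCH3, with exact 95% counting intervals as bars and roles in brackets. Called genes of xyloglucan synthesis and trimming lie between AXY4L, the lowest, and BGAL10, the highest, and both touch genes lie below 0.

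Upstream sequence was read for all 29 members. In the 300 bases before the annotated gene start of each of 27443 nuclear protein-coding genes, 5 short motifs were searched on both strands, and no matches to different motifs overlapped in the XTH windows. The W-box core TTGACN, the core bound by WRKY factors, was found in 16 of 29 members (55.2%) and in 50.3% of all genes. The auxin response element TGTCTC was found in 3 members (10.3%), namely XTH3, XTH6 and XTH24, and in 13.0% of all genes. The rapid stress response element CGCGTT was found in 3 members (10.3%), XTH13, XTH18 and XTH20, and in 3.1% of all genes. Of these, XTH13 and XTH20 had 0 counts in both genotypes and were not tested, and XTH18 was not called. The G-box CACGTG was found in 0 members and in 7.1% of all genes. The sequence CGTGCG, searched for the brassinosteroid response element, was found in 0 members and in 1.8% of all genes. Only this exact sequence was searched, so members with another form of the element were not counted. The windows of the gene with the smallest adjusted p among those that fell and of the one among those that rose are shown here, 5′ to 3′ on the gene's strand (TAIR10.1), with motif matches in capitals.
XTH22, chr5:23308681-23308980, minus strand: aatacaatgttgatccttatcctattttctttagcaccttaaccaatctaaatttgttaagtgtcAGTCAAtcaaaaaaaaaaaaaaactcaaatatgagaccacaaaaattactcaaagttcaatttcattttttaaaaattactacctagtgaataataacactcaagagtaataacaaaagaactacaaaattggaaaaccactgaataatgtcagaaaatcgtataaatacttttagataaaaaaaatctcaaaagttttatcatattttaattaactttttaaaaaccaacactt
XTH8, chr1:3880392-3880691, minus strand: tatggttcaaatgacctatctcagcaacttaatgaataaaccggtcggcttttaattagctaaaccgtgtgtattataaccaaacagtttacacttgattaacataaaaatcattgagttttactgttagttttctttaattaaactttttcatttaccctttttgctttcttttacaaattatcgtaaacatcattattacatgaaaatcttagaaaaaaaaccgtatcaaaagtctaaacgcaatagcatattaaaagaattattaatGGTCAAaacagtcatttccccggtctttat
XTH22 held its W-box core starting 235 bases before the gene start and XTH8 held it 30 bases before. This core was found in 50.3% of all genes, and a link between it and the direction of change was not tested.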

How the data were processed

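PolyA RNA of mee45-1 and Col-0 siliques was sequenced in 3 libraries each. The submitters' processing notes name RSEM, edgeR and Cufflinks, and also TopHat2 2.0.3.12, fastp 0.18.0 and Bowtie2 2.2.8, and give TAIR10 as the build; what each tool did is not stated. The authors deposited mean estimated counts and mean FPKM per genotype; 96.1% of the count means of either genotype were multiples of 1/3 within 0.01 counts. The deposited log2 fold changes and p-values are the authors'; recomputing a Benjamini-Hochberg adjustment over the 25434 genes tested gave their adjusted p-values. The 6174 other genes had 0 counts.

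Calls use the authors' adjusted p under 0.05, as a new test needs values per library. Log2 fold changes are of mean FPKM. A gene with 0 counts in either genotype gets no fold, whatever its count in the other. Exact 95% binomial counting intervals compare summed counts at equal total counts; reads without molecular identifiers are not independent molecules, so they cover counting error only. Family groups follow the XTH numbers. Gene models, coding sequences (longest model; pairwise global alignment, Biopython 1.88) and upstream windows come from RefSeq TAIR10.1, where all 29 members matched by locus tag; the files hold no coordinates. The members and lists were chosen with earlier results of these data known. Values are given for called members, the 10 with the highest mean FPKM, members of a tandem array with a called gene, called genes of the xyloglucan list, and TCH2 and TCH3; others were named after their values were seen. Steps were tested on simulated data. SciPy 1.17.1 and pandas 2.3.3 were used.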

Additional observations from a re-analysis of the deposited data

How the results depend on the processing

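No paired analysis was possible because the values used carry no replicate number; so the planned fits per library (edgeR, DESeq2, the replicate block, and leaving out a library in turn) were not run. Of the XTH members, 8 rose in mee45; the count was 4 at an adjusted p under 0.01, 5 once a 1.5-fold difference was also required, 2 for a 2-fold one and 2 by the authors' significant column, which also asks for a log2 fold change beyond 1. The 2 that fell became 5 at an unadjusted p under 0.05 and 1 without XTH22. In the xyloglucan list, the 6 higher genes became 1 under the 1.5-fold limit and 0 under the 2-fold one, and the 2 lower genes 1 and 0. These limits leave fewer genes by construction. Shares of all genes were computed only at an adjusted p under 0.05. They therefore do not apply to the counts at the other limits, which have no such share beside them. The family's median log2 fold change of 0.03 was 0.13 with at least 10 mean counts in the higher genotype or without XTH22. The share of counts was 0.0984% in mee45 and 0.0905% in Col-0 without XTH22, and 0.161% in mee45 and 0.154% in Col-0 with all 33 XTH symbols, a set added after seeing the data, as was the significant column. Under both scalings tried (total counts, median ratio) all 25 members with a fold moved by less than their counting error; the median-ratio scaling shifts log2 values by 0.0059. With log2(FPKM + 1), XTH17 (0.52) and XTH3 (-0.94) moved by more, as a pseudocount shrinks scarce genes. Summed over their tandem arrays, XTH25 (-1.20), XTH14 and XTH23 (-0.30 for both) moved by more, and XTH14, not called, then had the other sign. Members outside the rule for named genes were added to these runs after seeing the data. Depth limits XTH2, XTH21 and XTH26 most, with at most 6 summed counts in a genotype.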
